A study of Mus musculus with 12 samples.

Results

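The 10 genes described here are standard markers of the mural cells of blood vessels, the pericytes and vascular smooth muscle cells: Pdgfrb, Rgs5, Abcc9, Kcnj8, Cspg4, Acta2, Myh11, Notch3, Des and Tagln. They were taken by symbol, from a set drawn up with earlier results of these data known, and are 10 of the 56748 genes in the deposited table. The study sequenced poly-A RNA of whole retinas from 4 groups of 3 mice: C57BL/6J at 4 weeks, C57BL/6J at 8 weeks, JR5558 at 4 weeks and JR5558 at 8 weeks. None of these mice received a treatment according to the labels. JR5558 is an inbred line known to grow new vessels under the retina on its own, and known to be mutant for Crb1 (rd8) and for Jak3. The labels themselves give the strain name only, and they do not say which retina or how many retinas of a mouse went into a library.

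Mural cells wrap the endothelial tube of capillaries, arterioles and venules, and the retina is known for its dense pericyte cover. Endothelial cells release PDGF-B, which binds the receptor PDGFRB on pericytes and recruits them, while Jagged ligands on endothelium act on NOTCH3 in mural cells and favour their maturation. Kir6.1 (Kcnj8) and SUR2 (Abcc9) join into a potassium channel that helps to set vessel tone. Smooth muscle cells of larger vessels add a contractile apparatus of alpha smooth muscle actin (Acta2), smooth muscle myosin (Myh11), transgelin (Tagln) and desmin (Des).

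RefSeq promoter windows of GRCm38.p6, 250 bases before to 50 bases after a gene's start, were matched for 7 of the 10 genes: Rgs5, Abcc9, Kcnj8, Cspg4, Acta2, Notch3 and Des. The windows below are of Rgs5 and Abcc9, which fell with age in JR5558, of Kcnj8, the channel partner and chromosomal neighbour of Abcc9, and of Acta2, whose level did not pass any test. They lie at chr1:169655251-169655550 on the plus strand (Rgs5) and, on the minus strand, at chr6:142702225-142702524 (Abcc9), chr6:142571565-142571864 (Kcnj8) and chr19:34255324-34255623 (Acta2). Each is written 5′ to 3′ along the gene's strand, and capitals mark TGGGAA, the core letters that the Notch partner RBPJ binds.
Rgs5: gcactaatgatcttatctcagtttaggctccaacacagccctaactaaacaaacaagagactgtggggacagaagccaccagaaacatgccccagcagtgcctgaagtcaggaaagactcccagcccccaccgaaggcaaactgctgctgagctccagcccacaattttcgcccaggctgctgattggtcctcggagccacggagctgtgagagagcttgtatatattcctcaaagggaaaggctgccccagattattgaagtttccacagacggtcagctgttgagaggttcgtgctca
Abcc9: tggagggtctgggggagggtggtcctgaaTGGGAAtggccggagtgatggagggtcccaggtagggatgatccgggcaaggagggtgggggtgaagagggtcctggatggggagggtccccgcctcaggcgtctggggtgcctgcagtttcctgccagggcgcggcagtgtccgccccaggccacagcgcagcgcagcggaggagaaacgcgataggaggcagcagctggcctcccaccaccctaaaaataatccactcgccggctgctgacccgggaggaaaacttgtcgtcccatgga
Kcnj8: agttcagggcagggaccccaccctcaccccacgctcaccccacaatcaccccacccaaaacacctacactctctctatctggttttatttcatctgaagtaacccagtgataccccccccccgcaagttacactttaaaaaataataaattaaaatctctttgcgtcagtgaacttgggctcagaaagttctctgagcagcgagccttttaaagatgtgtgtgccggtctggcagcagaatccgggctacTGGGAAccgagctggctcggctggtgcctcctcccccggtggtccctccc
Acta2: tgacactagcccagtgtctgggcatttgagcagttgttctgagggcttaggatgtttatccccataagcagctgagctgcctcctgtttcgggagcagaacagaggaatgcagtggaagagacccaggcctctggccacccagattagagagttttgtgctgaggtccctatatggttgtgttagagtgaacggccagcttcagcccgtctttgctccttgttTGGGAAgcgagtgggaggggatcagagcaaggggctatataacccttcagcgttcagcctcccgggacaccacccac

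TGGGAA stood in 3 of the 7 windows on either strand, those of Abcc9, Kcnj8 and Acta2, against 25.6% of all 32851 windows. In Kcnj8 it covers bases 251 to 256 of the window, so that it begins at the start site itself. In Acta2 it covers bases 224 to 229, and in Abcc9 bases 30 to 35. The exact CArG box of serum response factor (CC, then 6 bases of A or T, then GG) and the letters TATAAA were found in none of the 7 windows, against 1.63% and 13.6% of all windows. Near matches to the CArG box, such as ccctatatgg in the Acta2 window, were not searched for or counted. GGGCGG, the letters of the Sp1 site, stood in the windows of Abcc9, Cspg4, Notch3 and Des, against 35.7% of all windows. Both strands were searched, no 2 of these motifs overlapped in the 7 windows, and a match or its absence describes only these letters in these bases. Of 18 contractile genes with a window, Myl9 and Srf held a CArG box.

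Levels per gene length (FPKM, fragments scaled by gene length and library size, as the authors deposited them) set the genes far apart. Rgs5, a brake on G protein signalling that marks pericytes, led with a mean of 19.0 FPKM over the 12 libraries (range 15.2 to 27.7). Pdgfrb followed at 3.53 FPKM, Acta2 at 2.25 FPKM and Kcnj8 at 1.45 FPKM, and each of these 4 exceeded the next gene in 12 of 12 libraries. Notch3 (0.921 FPKM) and Abcc9 (0.858 FPKM) could not be ordered, with Notch3 above Abcc9 in only 7 of 12 libraries. Myh11 (0.391 FPKM), Des (0.296 FPKM), Cspg4 (0.236 FPKM) and Tagln (0.168 FPKM) were the lowest of the set. Among these lowest genes, Des exceeded Cspg4 and Cspg4 exceeded Tagln in 9 of 12 libraries each.

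**Figure D1:**
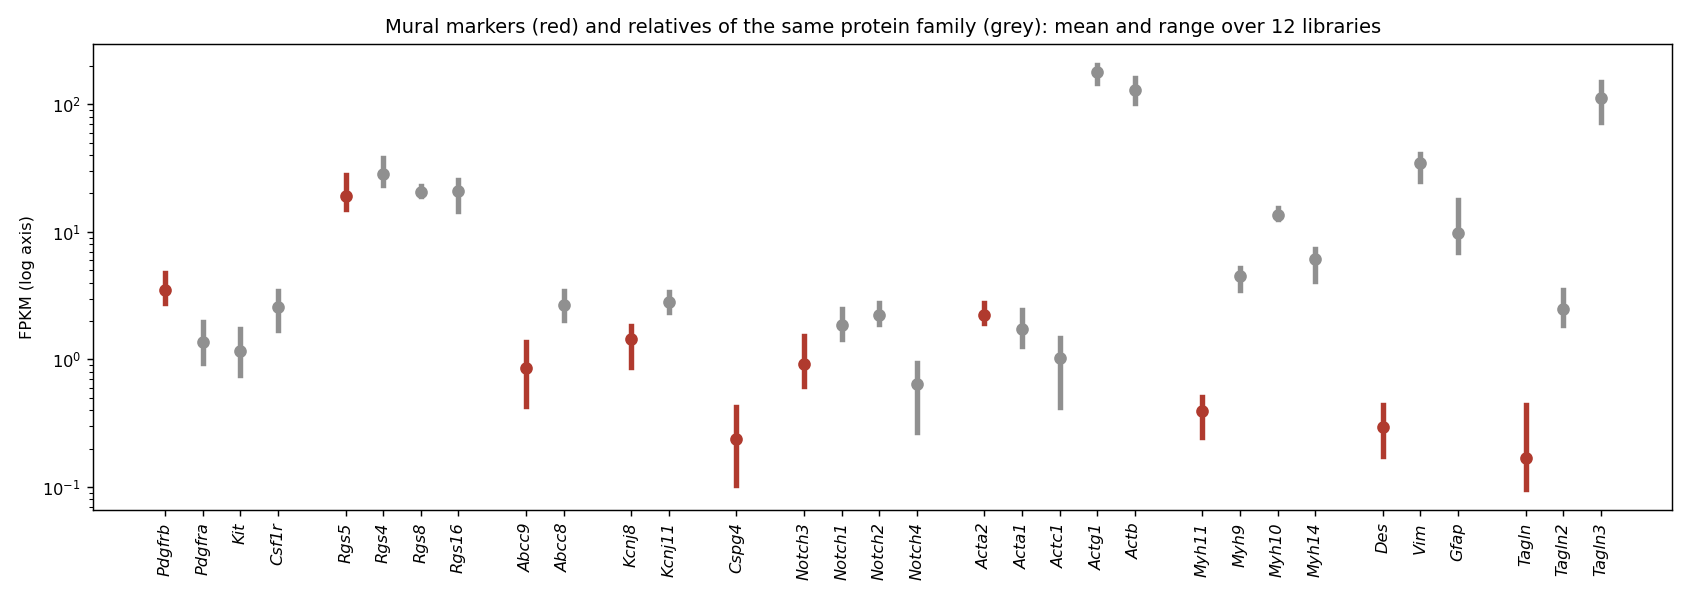
FPKM (log axis) of the 10 mural markers in red and of relatives in the same protein family in grey; points are means over 12 libraries and bars run from the lowest to the highest library. Pdgfrb at 3.53 FPKM lies above Pdgfra at 1.37 FPKM. By their means, Rgs5, Abcc9, Kcnj8, Myh11, Des and Tagln lie below all relatives plotted beside them, and Notch3 lies below Notch1 and Notch2.

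Against relatives the set splits. PDGFRB's sister receptor gene Pdgfra averaged 1.37 FPKM, below Pdgfrb. The potassium channel subunits of neurons and islet cells, Kcnj11 (2.84 FPKM) and Abcc8 (2.66 FPKM), both stood above the vascular pair Kcnj8 and Abcc9. Nonmuscle myosin Myh10 averaged 13.7 FPKM and the neuronal transgelin Tagln3 averaged 113 FPKM, far above Myh11 and Tagln. The enteric actin gene Actg2, a near copy of Acta2, had 0 to 2 counts per library, and the skeletal actin gene Acta1 had 37 to 87 counts beside 78 to 131 counts of Acta2.

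Total depth was 18029611 to 23739886 counts per library. The sex of the mice is not in the labels, but the 3 JR5558 libraries of 4 weeks held 0 to 5 counts of Xist and 1323 to 1846 counts of the Y-linked gene Ddx3y, and the other 9 libraries held 7772 to 22988 counts of Xist and 0 counts of Ddx3y. Each comparison with JR5558 at 4 weeks therefore compares groups that also differ in these genes, and the parts of sex and of strain or age cannot be told apart. JR5558 4-week replicate 3 stood apart on the second principal component of the 500 most variable genes (29.0, against -16.3 to 4.8 in the other libraries). Calls of named genes that rest on it are therefore also given without it, while counts of calls in the gene lists are given with all libraries. Retinal identity was plain in the Müller glia genes (summed level 5059 to 7971 CPM, that is TMM-scaled counts in 1000000, led by Glul). The summed level of pigment epithelium genes was 660 to 908 CPM in JR5558 libraries, above the 376 to 575 CPM of C57BL/6J.

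In the 4-week strain comparison, 1 of the 9 tested genes passed, Pdgfrb, against 6.16% of all 18334 tested genes (3.27% higher). Passing means an adjusted p under 0.05 in edgeR's quasi-likelihood test with Benjamini-Hochberg adjustment over all tested genes. The median log2 fold change of the 9 genes was 0.31 and 7 of 9 values were positive, beside a median of 0.00 over all tested genes. Tagln had 4 to 19 counts per library and did not pass the filter on low counts. Whole-retina RNA does not separate fewer cells of a type from less RNA per cell, and these cannot be told apart in any result here.

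**Figure D2:**
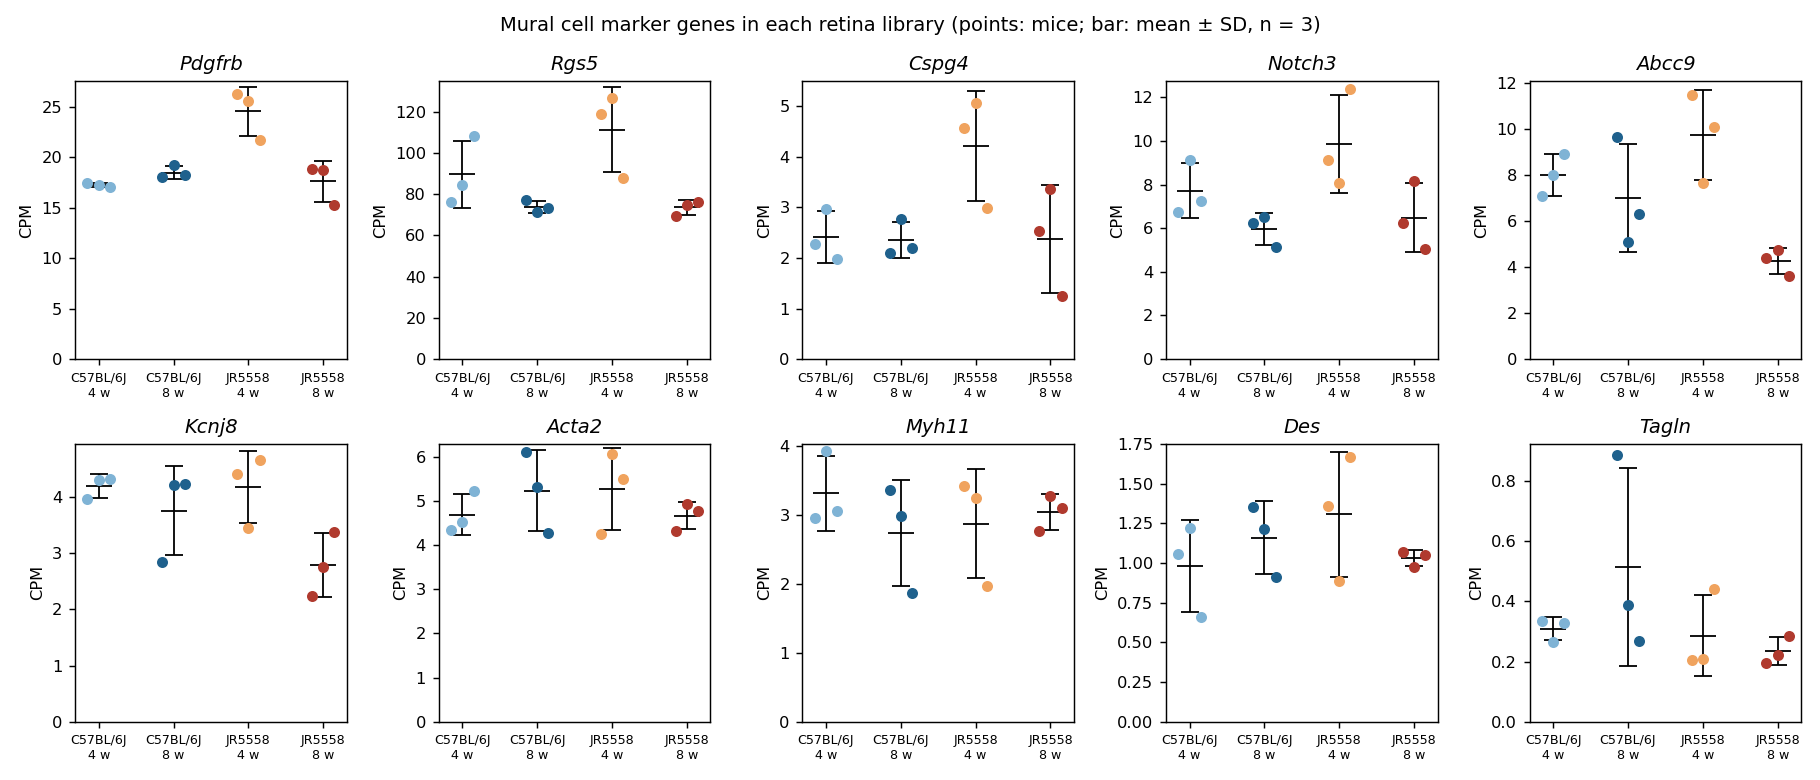
CPM of each mural marker in the 12 libraries; points are mice, horizontal bars are means and whiskers SD (n = 3). The 3 JR5558 libraries of 4 weeks hold the highest Pdgfrb values (21.8 to 26.3 CPM), and the 3 JR5558 libraries of 8 weeks hold the lowest Abcc9 values (3.62 to 4.75 CPM).

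Pdgfrb, the receptor for PDGF-B (ENSMUSG00000024620, GRCm38 chr18:61045150-61085061, plus strand), was highest in young JR5558 retinas. Its levels were 26.3, 25.6 and 21.8 CPM in JR5558 at 4 weeks and 17.4, 17.3 and 17.1 CPM in C57BL/6J at 4 weeks. At 8 weeks they were 18.8, 18.7 and 15.3 CPM in JR5558 and 18.02, 19.2 and 18.2 CPM in C57BL/6J. All 3 young JR5558 libraries therefore lay above the other 9, and the 8-week groups overlapped. At 4 weeks Pdgfrb rose by a log2 fold change of 0.51 ± 0.11 (SE, n = 3 mice per group; edgeR adjusted p = 0.00931), or 1.42-fold with a 95% interval of 1.21 to 1.68. At 8 weeks the difference was -0.07 ± 0.11 (adjusted p = 0.823; interval -0.31 to 0.17).

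The 4-week Pdgfrb call held when any 1 of the 6 libraries was left out (edgeR adjusted p 0.00448 to 0.0488, the lowest without JR5558 replicate 3). It ended when only the groups compared were fitted (0.51 ± 0.13, adjusted p = 0.0543) and in a fit that took the pigment epithelium score of each library into account (0.65 ± 0.22, adjusted p = 0.267). That score was 2.82 to 3.97 in C57BL/6J libraries and 4.30 to 4.82 in JR5558 libraries, so the fit separates score and strain poorly. For Pdgfrb at 4 weeks the authors' deposited table gives a log2 fold change of 0.50 with an adjusted p of 0.0313. With age, Pdgfrb fell by 0.48 ± 0.11 on the log2 scale in JR5558 (adjusted p = 0.0384). That age difference missed the threshold in 5 of the 6 fits that left out a JR5558 library (adjusted p 0.0862 to 0.273), passing only without 4-week replicate 3 (-0.55, adjusted p = 0.0149). In C57BL/6J its age difference was 0.10 ± 0.12 (adjusted p = 0.742).

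Rgs5 (ENSMUSG00000026678, GRCm38 chr1:169655501-169695813, plus strand) measured 76.3, 84.4 and 108 CPM in C57BL/6J and 119, 127 and 88.0 CPM in JR5558 at 4 weeks. At 8 weeks it measured 77.1, 71.4 and 73.1 CPM in C57BL/6J and 69.6, 74.7 and 76.4 CPM in JR5558. The strains overlapped at both ages, and in JR5558 every 8-week library lay below every 4-week library. Rgs5 fell by 0.60 ± 0.13 on the log2 scale between 4 and 8 weeks in JR5558 (edgeR adjusted p = 0.0205). In C57BL/6J the age difference was -0.28 ± 0.13 (adjusted p = 0.318).

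At 4 weeks the strain difference of Rgs5 was 0.31 ± 0.12 (edgeR adjusted p = 0.168). This value passed without C57BL/6J replicate 3, the highest of that group (0.47, adjusted p = 0.0164), without JR5558 replicate 3, the lowest of its group (0.45, adjusted p = 0.0261), and with no filter on low counts (0.30, adjusted p = 0.0333). The age difference in JR5558 missed the threshold in 5 of the 6 fits that left out a library (adjusted p 0.0901 to 0.124), with log2 values between -0.62 and -0.49. It passed without 4-week replicate 3 (-0.73, adjusted p = 0.00180), and the authors' deposited table gives it an adjusted p of 3.08e-05.

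Notch3, the Notch receptor of mural cells (ENSMUSG00000038146, GRCm38 chr17:32120820-32166852, minus strand), measured 6.74, 9.14 and 7.24 CPM in C57BL/6J and 9.12, 8.05 and 12.4 CPM in JR5558 at 4 weeks. At 8 weeks it measured 6.26, 6.53 and 5.13 CPM in C57BL/6J and 6.22, 8.16 and 5.05 CPM in JR5558. The 4-week mean was the higher in both strains, without overlap in C57BL/6J and with overlap in JR5558. Its age difference was -0.60 ± 0.20 in JR5558 and -0.37 ± 0.21 in C57BL/6J, and neither passed (edgeR adjusted p = 0.136 and 0.435). A noncoding gene on the other strand, Gm17276, overlaps Notch3 and had 15 to 42 counts, so that without known strand-specific counting some of these reads are uncertain.

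Cspg4, which encodes the NG2 proteoglycan of the pericyte surface (ENSMUSG00000032911, GRCm38 chr9:56865033-56899870, plus strand), had only 26 to 111 counts per library. It measured 2.28, 2.98 and 1.98 CPM in C57BL/6J and 4.58, 5.07 and 3.00 CPM in JR5558 at 4 weeks. At 8 weeks it measured 2.10, 2.77 and 2.19 CPM in C57BL/6J and 2.53, 3.37 and 1.24 CPM in JR5558. The young JR5558 group lay above the young C57BL/6J group without overlap, by a margin of less than 0.1 CPM. Groups of 2 genes of the set, Pdgfrb and Cspg4, did not overlap in that comparison, against 19.6% of all tested genes (10.1% higher).

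The Cspg4 difference at 4 weeks was 0.81 ± 0.32 on the log2 scale (edgeR adjusted p = 0.163), larger than that of Pdgfrb but with a wide interval of 0.14 to 1.48. Its age difference in JR5558 was -0.82 ± 0.32 (adjusted p = 0.192). NG2 is also made by oligodendrocyte precursors, whose defining genes Olig1 and Olig2 had 0 to 4 and 0 to 1 counts per library. Pdgfra, which those precursors and retinal astrocytes also express, averaged 13.8 CPM.

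Abcc9 and Kcnj8 encode the partner subunits of the vascular potassium channel and lie 16247 bases apart on chromosome 6 (GRCm38 chr6:142587862-142702315 and chr6:142564837-142571614, both on the minus strand). Abcc9 (ENSMUSG00000030249) measured 7.07, 7.97 and 8.89 CPM in C57BL/6J and 11.5, 7.63 and 10.1 CPM in JR5558 at 4 weeks. At 8 weeks it measured 9.62, 5.09 and 6.31 CPM in C57BL/6J and 4.37, 4.75 and 3.62 CPM in JR5558. The 3 old JR5558 libraries were the lowest of all 12, below every other group without overlap. Abcc9 fell by 1.20 ± 0.22 on the log2 scale between 4 and 8 weeks in JR5558 (edgeR adjusted p = 0.00901), to 0.436 of its 4-week level with a 95% interval of 0.316 to 0.602. In C57BL/6J its age difference was -0.18 ± 0.22 (adjusted p = 0.746).

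The fall of Abcc9 in JR5558 passed under 13 of 14 alternatives and was lost without 8-week replicate 3 (-1.09, edgeR adjusted p = 0.0842). It remained without 4-week replicate 3 (-1.17, adjusted p = 0.013). At 8 weeks Abcc9 was lower in JR5558 by a log2 difference of -0.73 ± 0.22, which missed the threshold (adjusted p = 0.0732). That difference passed with DESeq2 (adjusted p = 0.0342), with no filter on low counts (0.0182), with only the groups compared (0.0426) and without C57BL/6J replicate 2 (-0.91, 0.0324), and was -0.42 (adjusted p = 0.436) without C57BL/6J replicate 1. The authors' deposited table gives it an adjusted p of 0.0442.

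Kcnj8 (ENSMUSG00000030247) measured 3.96, 4.30 and 4.33 CPM in C57BL/6J and 4.41, 3.45 and 4.66 CPM in JR5558 at 4 weeks. At 8 weeks it measured 2.85, 4.20 and 4.22 CPM in C57BL/6J and 2.24, 2.75 and 3.38 CPM in JR5558. The old JR5558 group lay just below the young one and overlapped the old C57BL/6J group. Kcnj8 differed with age in JR5558 by -0.58 ± 0.23 (edgeR adjusted p = 0.206), in the same direction as Abcc9 but without passing. Its strain difference was -0.01 ± 0.23 at 4 weeks and -0.42 ± 0.24 at 8 weeks (adjusted p = 0.993 and 0.379). Of the neuronal pair Kcnj11 and Abcc8, 0 of 2 passed edgeR's test in any comparison, with 0 at an unadjusted p under 0.05 and 0 by DESeq2, and the age difference in JR5558 was -0.05 for Kcnj11 and -0.27 for Abcc8.

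Acta2, Myh11 and Des passed edgeR's test in no comparison, with 0 at an unadjusted p under 0.05 and 0 by DESeq2, which gave no adjusted p for Des in 3 comparisons. Acta2, the actin of smooth muscle and myofibroblasts (ENSMUSG00000035783, GRCm38 chr19:34241090-34255590, minus strand), measured 4.35, 4.52 and 5.22 CPM in C57BL/6J and 4.25, 6.06 and 5.50 CPM in JR5558 at 4 weeks. At 8 weeks it measured 6.12, 5.31 and 4.28 CPM in C57BL/6J and 4.32, 4.92 and 4.77 CPM in JR5558. All 4 groups overlapped. Its strain difference was 0.16 ± 0.20 at 4 weeks and -0.17 ± 0.20 at 8 weeks (edgeR adjusted p = 0.729 and 0.739). The 95% intervals, -0.26 to 0.58 and -0.58 to 0.25, leave room for changes of up to about 1.49-fold in either direction.

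Myh11, the myosin heavy chain of smooth muscle (ENSMUSG00000018830, GRCm38 chr16:14194535-14291372, minus strand), ranged from 1.87 to 3.93 CPM in C57BL/6J and from 1.96 to 3.42 CPM in JR5558, with overlap between all groups. Its strain difference was -0.20 ± 0.27 at 4 weeks and 0.15 ± 0.28 at 8 weeks (edgeR adjusted p = 0.759 and 0.844). Des, the intermediate filament of muscle cells and pericytes (ENSMUSG00000026208, GRCm38 chr1:75360329-75368579, plus strand), had 14 to 34 counts per library, 0.659 to 1.67 CPM. Its strain difference of 0.42 ± 0.40 at 4 weeks had an interval from -0.42 to 1.26, so that a change of the size seen in Pdgfrb was not detectable at this depth. Des shares 369 bases with the noncoding gene Gm15179 on the other strand, which had 0 to 10 counts. Tagln, an actin-bundling protein (ENSMUSG00000032085, GRCm38 chr9:45929619-45936058, minus strand), had 19 counts in C57BL/6J 8-week replicate 1 and 4 to 9 counts in the other libraries. It shares 108 bases with Pcsk7 on the other strand, which had 400 to 715 counts. It also shares 3627 bases with the noncoding gene Gm48529 on the other strand, which had 6 to 27 counts. The few counts of Tagln are uncertain for these reasons too.

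**Figure D3:**
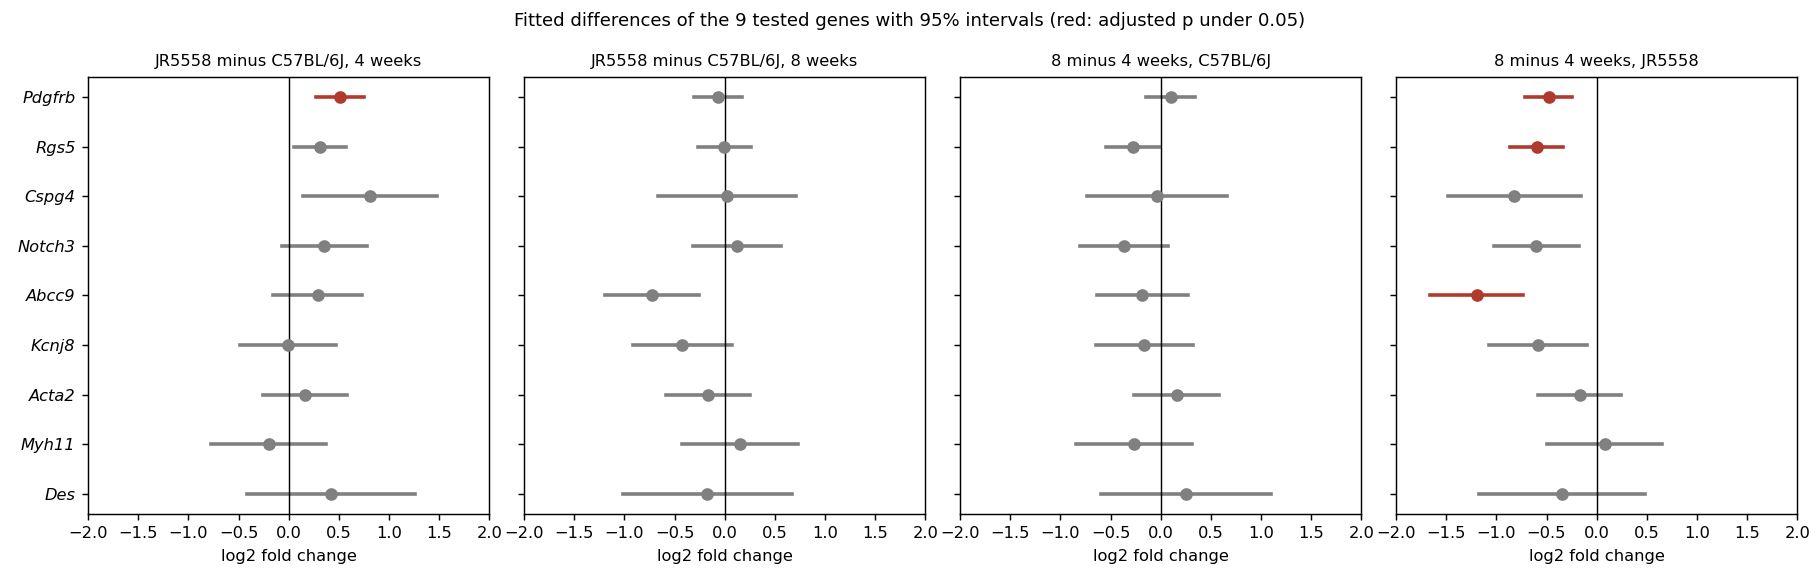
Log2 fold changes (points) with 95% intervals (bars) of the 9 tested genes in 4 comparisons; red marks an adjusted p under 0.05. The pericyte genes other than Kcnj8 (-0.01) have positive values at 4 weeks, and with age in JR5558 8 of 9 values are negative; the intervals of Acta2, Myh11 and Des cross 0 in all 4 panels.

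Counted over the set, edgeR's test called 3 of 9 genes lower with age in JR5558, Pdgfrb, Rgs5 and Abcc9, against 1.51% of all tested genes (0.835% lower). The median was -0.58, with 8 of 9 values negative and 6 at an unadjusted p under 0.05, beside a median of -0.01 over all tested genes. Groups did not overlap for 4 genes, these 3 and Kcnj8, against 24.3% of all genes (12.2% lower). Without a single 8-week library the count of calls fell to 1, 1 and 0, and without 4-week replicate 1 or 2 it fell to 1. This comparison and the 4-week strain comparison share the young JR5558 group, so that their opposite signs are not independent of each other.

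In C57BL/6J the age comparison called 0 of 9 genes (0 by DESeq2, 1 at an unadjusted p under 0.05 by edgeR, Rgs5), against 0.431% of all genes. Its median was -0.16. Pdgfrb and Notch3 did not overlap between the ages, the first higher and the second lower at 8 weeks, against 19% of all genes (8.98% higher, 10% lower). At 8 weeks the strain comparison called 0 of 9 by edgeR and 1 by DESeq2, with 1 at an unadjusted p under 0.05 (Abcc9 each time), against 5.18% of all genes, and the median was -0.07. Only Abcc9 did not overlap between the strains at that age, against 30.2% of all genes (15.3% lower).

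Whether strain acted differently at the 2 ages was tested directly, and 0 of 9 genes passed by edgeR or by DESeq2, against 0.0927% of all genes. It was -0.58 ± 0.16 for Pdgfrb (edgeR adjusted p = 0.366) and -1.01 ± 0.31 for Abcc9 (adjusted p = 0.432), the 2 genes at an unadjusted p under 0.05. Over all other settings the adjusted p stayed between 0.134 and 0.775 for Pdgfrb and between 0.106 and 0.802 for Abcc9. The larger age difference in JR5558 than in C57BL/6J was thus not shown for any gene of the set.

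Summed over Pdgfrb, Abcc9, Kcnj8, Cspg4 and Notch3, leaving out Rgs5 because it outweighs the rest, levels were 49.8 to 55.9 CPM in young JR5558 libraries. The other groups held 37.5 to 41.7 CPM (C57BL/6J at 4 weeks), 36.1 to 38.9 CPM (C57BL/6J at 8 weeks) and 28.6 to 37.7 CPM (JR5558 at 8 weeks). The 4 contractile genes summed to 7.33 to 11.7 CPM with overlap between all groups. With Rgs5 added the young groups overlapped, at 140 to 177 CPM in JR5558 and 114 to 148 CPM in C57BL/6J, beside 104 to 116 CPM in the old groups. Pdgfrb, the 1 gene called at 4 weeks, was the largest part of the sum without Rgs5. It averaged 24.5 of 52.5 CPM in young JR5558 and 17.3 of 39.6 CPM in young C57BL/6J. Kcnj8 averaged 4.18 and 4.20 CPM in these groups, so the higher sum is not a rise of each gene in it. These sums describe the libraries, and no test was made on them.

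**Figure D4:**
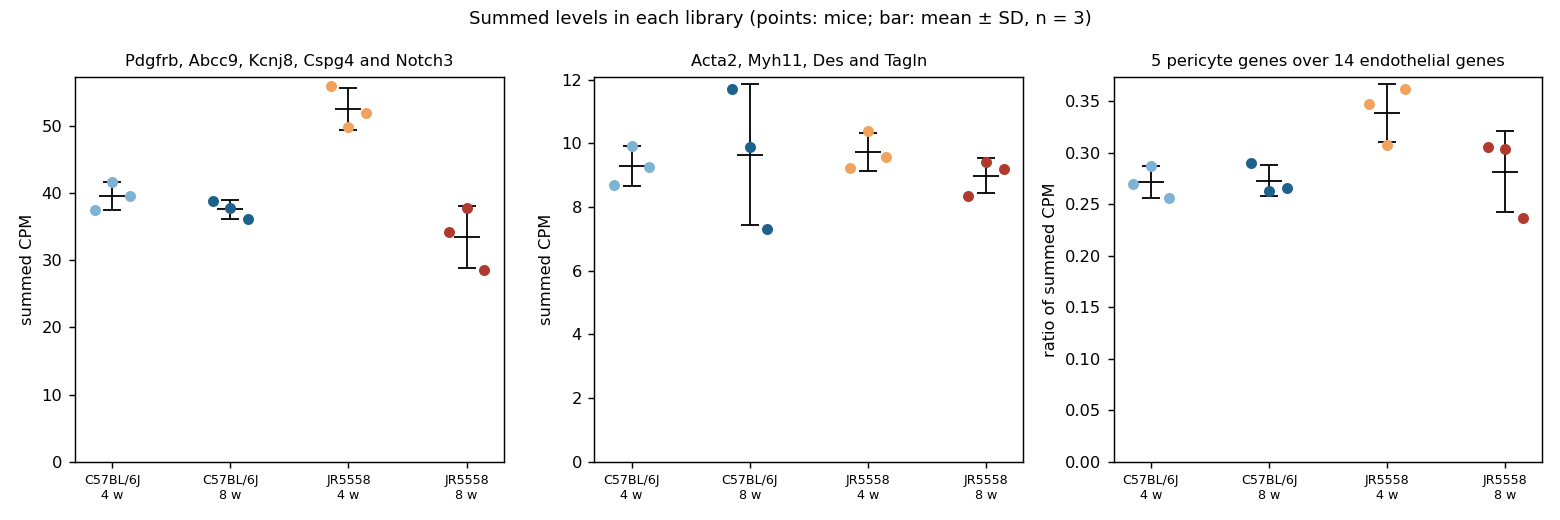
Summed CPM of 5 pericyte genes (left), summed CPM of 4 contractile genes (middle) and the ratio of the 5 pericyte genes to 14 endothelial genes (right) by group; points are mice, bars mean ± SD (n = 3). The left sum, of which Pdgfrb is the largest part, is highest in young JR5558 retinas (49.8 to 55.9 CPM). The middle sum overlaps between all groups, and the right ratio is 0.307 to 0.361 in young JR5558 retinas and 0.236 to 0.305 elsewhere.

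Beside the vessel lining the pericyte sum gave different pictures depending on which endothelial genes were used. Over all 16 endothelial genes the ratio was 0.0593 to 0.0769 in old JR5558 libraries and 0.0901 to 0.106 in the other 9. Kdr and Flt1, the VEGF receptors, made up 63.1% to 76.2% of that endothelial sum. Without these 2 genes, a choice made after their values were seen, the ratio was 0.236 to 0.305 in old JR5558 libraries, overlapping the 0.256 to 0.290 of C57BL/6J. The remaining 14 endothelial genes themselves summed to 112 to 125 CPM in old JR5558 libraries and to 134 to 162 CPM in the other 9. How far the vessel content of the samples moved the mural genes was not tested.

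Of the 16 endothelial genes, edgeR's test called 2 higher in JR5558 at 4 weeks, and 2 higher and 1 lower at 8 weeks. Of all tested genes, 3.27% were called higher at 4 weeks and 5.18% in either direction at 8 weeks. Kdr was higher by 0.72 ± 0.07 and 0.56 ± 0.07, Plvap, a diaphragm protein of endothelial cells, by 0.84 ± 0.15 and 0.62 ± 0.15, and the tight junction gene Cldn5 differed by -0.65 ± 0.14 at 8 weeks (adjusted p = 0.00918). Without JR5558 4-week replicate 3 the 4-week values were 0.70 for Kdr and 0.86 for Plvap, and both passed (adjusted p = 1.87e-05 and 0.00344). The 8-week calls of Plvap and Cldn5 each ended in some fits without 1 library (adjusted p up to 0.0873 and 0.0719). With age in JR5558, 14 of 16 values were negative with a median of -0.31, and 3 of 16 fell, against 0.835% of all tested genes called lower. These were Eng (-0.72 ± 0.15), Pecam1 (-0.56 ± 0.12) and Slco1a4 (-0.69 ± 0.17), named after their values were seen. These 3 calls passed without 4-week replicate 3 (-0.80, -0.59 and -0.84) and were lost on leaving out any 1 of the other 5 JR5558 libraries (edgeR adjusted p 0.0507 to 0.211), with log2 values between -0.76 and -0.49. This is the comparison in which Pdgfrb, Rgs5 and Abcc9 fell.

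Further genes listed for mural cells, 27 tested, gave a like sign with few calls. At 4 weeks 20 of 27 were higher in JR5558 (median 0.16) and edgeR's test called 1, Tbx2 (0.35 ± 0.09, adjusted p = 0.0271), a call lost on leaving out replicate 3 of either strain or replicate 2 of JR5558 (adjusted p 0.0540 to 0.0822). Of all tested genes, 3.27% were called higher in that comparison. With age in JR5558, 23 of 27 were negative (median -0.20) and 0 passed (0 by DESeq2, 4 at an unadjusted p under 0.05). Several of these genes are also made outside vessels: Vtn, for example, averaged 940 CPM, far above any member of the set. Tbx2 averaged 109 CPM, also above the highest member, Rgs5 (87.1 CPM), and which cells its reads came from was not tested. Of 17 tested contractile genes outside the set, edgeR called Mylk alone, the myosin light chain kinase. Its mean level was 117 CPM, beside 4.97 CPM for Acta2 and 3.00 CPM for Myh11, and the cells that held this RNA were not identified. Mylk was higher in JR5558 at 4 weeks (0.44 ± 0.09) and 8 weeks (0.33 ± 0.09, adjusted p = 0.0494) and lower at 8 than at 4 weeks in both C57BL/6J (-0.54 ± 0.09) and JR5558 (-0.65 ± 0.09), and its 8-week strain call ended in 5 of 6 fits without 1 library (adjusted p up to 0.237). The 4-week strain call and the JR5558 age call of Mylk held without 4-week replicate 3 (0.49 and -0.70). The C57BL/6J age call was lost without 8-week replicate 2 or 3 (-0.47 and -0.55, edgeR adjusted p = 0.146 and 0.0576).

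Ligands and modifiers of both receptors were read from lists of PDGF and Notch pathway genes. Pdgfb, the ligand of PDGFRB, was lower in JR5558 at 4 weeks by a log2 difference of -0.74 ± 0.19 (3.43 against 5.75 CPM; edgeR adjusted p = 0.0236), while its receptor was higher. It was the only call among 12 PDGF pathway genes at 4 weeks (median -0.01), against 6.16% of all tested genes. The Pdgfb call was lost when replicate 2 or 3 of either strain was left out (edgeR adjusted p 0.0569 to 0.0905). At 8 weeks the Pdgfb difference was -0.40 ± 0.19 (adjusted p = 0.284). Among 16 Notch pathway genes, the ligand Jag1 was lower at 4 weeks (-0.39 ± 0.09, edgeR adjusted p = 0.0145). That call was lost without JR5558 replicate 1 (adjusted p = 0.0700) and held without JR5558 replicate 3 (-0.40, adjusted p = 0.0319). Mfng, a sugar transferase that tunes Notch, was higher at 4 weeks (0.97 ± 0.15, adjusted p = 0.000366), also without JR5558 replicate 3 (0.89, adjusted p = 0.00189). Its relative Lfng was higher at 8 weeks (0.78 ± 0.20, adjusted p = 0.0241), a call that ended in 4 of 6 fits without 1 library (adjusted p up to 0.132).

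Genes of other cell types differed between the groups too. At 4 weeks 11 of 14 pigment epithelium genes, 6 of 10 Müller glia genes and 2 of 8 macrophage and microglia genes were higher in JR5558 by edgeR, and at 8 weeks 3, 4 and 2, beside 3.27% of all tested genes at 4 weeks. At 8 weeks 5.18% of all tested genes were called in either direction. DESeq2 called 6, 7 and 2 of these genes at 4 weeks and 4, 6 and 3 at 8 weeks. Fibroblast genes summed to 53.7 to 108 CPM in young C57BL/6J and 91.6 to 139 CPM in young JR5558. The old groups held 106 to 109 CPM (C57BL/6J) and 86.9 to 134 CPM (JR5558). Fbln1 alone averaged 69.8 CPM and Col1a2 12.3 CPM, and the matrix genes Dcn and Lum had at most 16 and 8 counts. At 4 weeks 7 of 8 tested fibroblast genes were higher in JR5558 (median 0.63). Of these 8 genes, 0 passed by edgeR, 0 by DESeq2 and 2 had an unadjusted p under 0.05. With age in JR5558, 6 of 8 were negative (median -0.31) and edgeR called 1, against 1.51% of all tested genes. The collagen gene Col3a1, named after its values were seen, fell with age in JR5558 by 2.32 ± 0.34 on the log2 scale, from 4.48 to 0.888 CPM, and passed without 4-week replicate 3 (-2.59). Of 12 striated muscle genes 5 were tested, Myh2 had 0 counts in all libraries, and the sum of the list was 9.28 to 13.5 CPM. Neb, the nebulin of thin filaments, was lower in JR5558 at 4 weeks (-2.38 ± 0.45, edgeR adjusted p = 0.00246) and at 8 weeks (-1.72 ± 0.45, adjusted p = 0.0307). The 4-week Neb call held in all 6 fits without 1 library (adjusted p 0.00213 to 0.0136), and the 8-week call was lost in 4 of 6 (adjusted p 0.0514 to 0.171). With the pigment epithelium score in the model, the 4-week calls of Kdr, Plvap, Tbx2, Mylk, Pdgfb, Jag1 and Mfng missed the threshold (edgeR adjusted p 0.0678 to 0.520), as did the 8-week calls of Kdr, Plvap, Cldn5, Mylk and Lfng (0.0517 to 0.394). The differences kept their sign and the standard errors were larger: at 4 weeks they were 0.52 ± 0.13 for Kdr, 0.82 ± 0.30 for Plvap, 0.63 ± 0.17 for Tbx2, 0.52 ± 0.18 for Mylk, -0.70 ± 0.37 for Pdgfb, -0.35 ± 0.17 for Jag1 and 0.81 ± 0.30 for Mfng. At 8 weeks they were 0.41 ± 0.10 for Kdr, 0.60 ± 0.23 for Plvap, -0.50 ± 0.22 for Cldn5, 0.39 ± 0.14 for Mylk and 0.70 ± 0.32 for Lfng. Because the score did not overlap between the strains, this fit separates score and strain poorly. With only the groups compared, Tbx2 (0.35 ± 0.12), Jag1 (-0.39 ± 0.11) and Pdgfb (-0.74 ± 0.23) missed the threshold at 4 weeks (0.0829 to 0.164) with differences of the same size. The part of these cell types in the mural gene values was not tested.

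Within the set, likeness over the 12 libraries was highest for Pdgfrb and Cspg4 (Pearson r of log2 CPM 0.889), which made Pdgfrb the second most alike of 13435 genes to Cspg4. Pdgfrb and Rgs5 reached 0.683, Abcc9 and Rgs5 0.628, and Notch3 and Cspg4 0.651. Of the members, Abcc9 was the closest to Kcnj8 (0.528) but ranked 768 among all genes. The closest member ranked 8 for Pdgfrb, 293 for Notch3, 560 for Rgs5, 688 for Abcc9 and 1378 for Des. For Acta2 and Myh11 the closest member was Rgs5 (0.272 and 0.256), at ranks 1980 and 2707. These values describe 12 libraries in 4 groups, so they hold group differences and shared scaling as well as variation between mice.

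The 3 genes most like each tested member were as follows. For Pdgfrb they were Pde10a (0.910), Pcdhb21 (0.904) and the Y-linked Eif2s3y (0.901), the last set by the same 3 libraries that hold Ddx3y. For Rgs5 they were N4bp2l1 (0.947), Parp11 (0.945) and Slco1a4 (0.932), a transporter gene of the endothelial list. For Abcc9 they were Ccdc87 (0.915), Itga1 (0.907) and Hrk (0.895), and for Kcnj8 they were Ttc30a2 (0.901), Itm2a (0.884) and S100pbp (0.829). Cspg4 had Pacs2 (0.920) and Gbf1 (0.873) beside Pdgfrb, and Notch3 had Nup210 (0.919), Ago4 (0.909) and Mto1 (0.887). Acta2 had Smtnl2 (0.844), Gucy2g (0.830) and Oas1b (0.816), Myh11 had Cep70 (0.895), Akap13 (0.860) and Nfx1 (0.803), and Des had Aldh3b1 (0.887), Zfp865 (0.884) and Akr7a5 (0.876).

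Depth limited the set unevenly. Counting error alone gives a coefficient of variation of 2.37% for Rgs5 at its mean count and 5.01% for Pdgfrb. It gives 8.20% for Abcc9, 13.1% for Cspg4, 20.9% for Des and 38.3% for Tagln. The spread between mice within groups reached 18.4% for Rgs5, 33.5% for Abcc9 and 45.1% for Cspg4, above counting error in each case.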

How the data were processed

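Whole-retina poly-A RNA libraries of 3 mice in each of 4 groups (C57BL/6J and JR5558 at 4 and 8 weeks) were analysed. Nothing in the labels says more than that they are numbered samples of different mice, so p-values measure the spread between these samples. The tools named in the submitters' processing notes are fastp, HISAT2 (2.0.5) and, for the counting, featureCounts (1.5.0-p3), and the build is mm10. Per the file headers the deposited file holds raw counts, FPKM by the authors, gene lengths, and the log2 fold change and p-value, raw and adjusted, of their own comparisons, whose test is not given in the sources used here. Whether counting used strand is not stated. The deposited starts of the 10 genes differ from those of GENCODE M21, so GRCm38 positions were taken from GENCODE M21 by identifier.

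Counts were analysed in R 4.3.3 with edgeR 4.0.16 (on limma 3.58.1) and, as an alternative, DESeq2 1.42.0. Genes passing filterByExpr (minimum count 10, minimum total 15), 18334 in all, were scaled by TMM and fitted with 1 mean per group over all 12 libraries. The contrasts (JR5558 against C57BL/6J at 4 and at 8 weeks, 8 against 4 weeks in either strain, and the interaction) were tested 2-sided with edgeR's quasi-likelihood test, adjusted by the Benjamini-Hochberg method over all tested genes, with a threshold of 0.05. Library totals were 18029611 to 23739886 counts, and tested genes held at least 99.89% of them. Errors after ± are SE of log2 fold changes. The scripts were tested on simulated data. Replicate pairs differed beyond sampling noise (chi-square over degrees of freedom 3.55 to 24.3).

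The members and the gene lists were chosen with earlier results of these data known. The naming rule takes all members, from each list of vessel genes up to 4 genes past the threshold in a strain comparison, and for each tested member the 3 genes with the highest Pearson correlation of log2 CPM (prior count 2, mean of at least 1 CPM), leaving out pseudogenes and unnamed gene models. Lists of other cell types are given by counts and sums, and not all genes selected by the rule are printed. Alternatives were RLE size factors, no filter, at least 1 CPM in 3 libraries, DESeq2, only the groups compared, a replicate block, a pigment epithelium score (mean log2 CPM of its genes) as a covariate, no genes of chromosomes X and Y, and leaving out each library. Promoter windows are from RefSeq.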

Additional observations from a re-analysis of the deposited data

How the results depend on the processing

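Of 675 values of the tested markers under the alternatives, 632 kept their direction and their side of the threshold, 13 lost the threshold, 7 gained it and 23 changed sign, all of the latter for values that had not passed. Same-numbered samples did not deviate together (18 pairs, correlations -0.114 to 0.087, 0 over 0.1), so the numbers do not pair mice; with the replicate block no marker call changed, the 8-week call of Mylk was lost (adjusted p = 0.0643) and the one sign change was Cspg4 at 8 weeks (-0.045).

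With no filter on low counts, 2 markers passed at 4 weeks and 1 at 8 weeks, Rgs5 at 8 weeks was 0.008, and the count of all genes past the threshold was 445 (79 in the main fit of age in C57BL/6J), 854 (277 for age in JR5558) and 96 (17 for the difference of strain effects). DESeq2 gave 407, 746 and 63 genes in these comparisons and 1 marker at 8 weeks. With only the groups compared, 558 genes (1130 in all groups) and 0 markers passed at 4 weeks, 2183 genes (949) and 1 marker at 8 weeks, 22 genes with age in C57BL/6J and 544 with age in JR5558. With the score of pigment epithelium genes in the model, 166 genes and 0 markers passed at 4 weeks, 293 genes at 8 weeks and 40 with age in C57BL/6J, and signs changed for Abcc9 (-0.10) and Acta2 (-0.11) at 4 weeks, Pdgfrb at 8 weeks (0.03) and Cspg4 with age in C57BL/6J (0.28). Without genes of chromosomes X and Y, 9 genes passed for the difference of strain effects.

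Leaving out each library in turn gave 1 to 2 markers at 4 weeks, 0 to 1 at 8 weeks and 0 to 3 with age in JR5558, and 538 to 649 genes at 8 weeks, 16 to 125 with age in C57BL/6J, 63 to 689 with age in JR5558 and 6 to 38 for the difference of strain effects. Ranges that crossed 0 were, at 4 weeks, Kcnj8 (-0.09 to 0.11) and Myh11 (-0.35 to 0.01). At 8 weeks they were Cspg4 (-0.31 to 0.33), Myh11 (-0.051 to 0.330), Notch3 (-0.076 to 0.270), Pdgfrb (-0.112 to 0.023) and Rgs5 (-0.033 to 0.040). With age they were Cspg4 (-0.17 to 0.14) and Kcnj8 (-0.263 to 0.005) in C57BL/6J and Myh11 in JR5558 (-0.12 to 0.24). The cause of these changes was not tested. Counts of 4 to 34 per library limit what can be said of Tagln and Des.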
